A study of Mus musculus with 6 samples.

Results

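The genes described here encode factors of nonsense-mediated decay, the pathway that destroys messenger RNAs whose stop codon lies in a premature position. They were chosen by name, as the UPF genes Upf1, Upf2, Upf3a and Upf3b and the SMG genes Smg1, Smg5, Smg6, Smg8 and Smg9. All 9 are among the 55850 gene rows of the expression table, and all 9 passed the filter for testing, a mean of at least 1 FPKM (fragments per kilobase of gene length, scaled to the library total), as did 14238 genes in all. The data are RNA sequencing libraries of untreated mouse testis, 3 labelled WT and 3 labelled CKO (written cKO here). The series title places a loss of the splicing factor SRSF2 in Sertoli cells, the somatic nurse cells of the seminiferous tubule, and the design sets cKO against controls for expression and splicing. Not given in the sources used here are strain, age, the Cre driver and whether the controls carry a floxed allele. Separate animals are not named in the labels either, so each p-value covers only the spread of these samples, part or all of which may be technical.

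Depth was 16070287 to 17281330 recovered reads per library. Srsf2, the targeted gene, was at 127, 96.7 and 102 FPKM in WT libraries 1 to 3 and at 74.0, 87.3 and 87.3 FPKM in cKO libraries 1 to 3, every cKO library below every WT library (limma adjusted p = 0.384). Both Sertoli and germ cell markers were present, and of 8 spermatid markers 6 were below 1 FPKM. Summed Sertoli markers (14 genes) spanned 1470 to 1950 FPKM in WT and 979 to 1177 FPKM in cKO, while summed germ cell markers (13 genes) spanned 251 to 493 FPKM and 331 to 502 FPKM. Amh weighed most in the Sertoli sum, with means of 768 FPKM in WT and 383 FPKM in cKO. For 9 of 14 Sertoli markers every cKO library lay below every WT library, against 9.92% of tested genes. Sox9, Wt1, Gata4, Fshr and Ctsl were not among them, with Wt1 at means of 29.6 and 28.0 FPKM. In whole testis, fewer cells of a type and less RNA per cell cannot be told apart.

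Nonsense-mediated decay begins when a ribosome stops upstream of an exon junction complex, the protein mark that splicing leaves on an mRNA. UPF1, an RNA helicase, is phosphorylated by the kinase SMG1, which SMG8 and SMG9 hold in check, and UPF2 and UPF3 proteins connect UPF1 to the junction mark. Phosphorylated UPF1 then recruits SMG6, an endonuclease, and SMG5, an adaptor that leads to decapping and deadenylation. Several of these factors are themselves known as substrates of the pathway, so that their mRNA levels can rise when decay is impaired. In the testis the pathway is known for a role in Sertoli cell and germ cell development.

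Transcripts of the nonsense-mediated decay class are annotated for 3 of the 9 genes in GENCODE M21 (GRCm38), namely Smg1, Smg5 and Smg6. The class is an annotation and does not show which members are substrates of the pathway. Each of the 3 genes has 1 transcript of this class. The last 30 coding bases of these transcripts and of the principal coding transcript are given because they hold the premature and the normal stop of each gene. They are taken from the GENCODE M21 transcripts and printed 5′ to 3′ with the stop codon in capitals.
Smg1-204, premature stop: atgacagagaccgaagactggctactgTAA
Smg1-201, normal stop: ctgtatgaaggttggacagcttgggtgTGA
Smg5-202, premature stop: gtggaagccatgtattgctacttgcgcTGA
Smg5-201, normal stop: ttctacaggcagtggaaggagattggtTGA
Smg6-202, premature stop: gatgatggagacattccctgcagtggcTGA
Smg6-201, normal stop: gccttccttacgtgggcccaggtgggcTGA

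The premature stop of Smg1-204 lies in exon 2 of the annotated transcript, with 59 exon junctions behind it. The 30 bases printed for it are at chr7:118210780-118210809 on the minus strand. In Smg5-202 an exon junction splits the stop codon, whose last base is in exon 6, within chr3:88347568-88349111, plus strand. Behind it lie 3 junctions, the last 434 bases downstream. In Smg6-202 it falls in exon 8 with 9 junctions behind it, and the bases cross a junction within chr11:74946217-74990096, plus strand. These transcripts are annotated without a complete 5′ end. The normal stops lie in the last exon, with 0 junctions behind them. The bases printed for them are at chr7:118135541-118135570, chr3:88361079-88361108 and chr11:75162921-75162950. The deposited table gives 1 value per gene, so how much of each gene's signal comes from such a transcript was not measured.

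In GENCODE M21 on GRCm38, Upf1 (ENSMUSG00000058301) lies on chromosome 8 at 70331525 to 70353278, minus strand, and shares 68 exon bases with Cers1 and Gdf1 on the opposite strand. Upf2 (ENSMUSG00000043241) spans 5951469 to 6056703 of chromosome 2, plus strand. Upf3a (ENSMUSG00000038398) is on chromosome 8 at 13785615 to 13799193, plus strand, and its paralog Upf3b (ENSMUSG00000036572) is on chromosome X at 37091678 to 37110322, minus strand. Smg1 (ENSMUSG00000030655) and Smg9 (ENSMUSG00000002210) share chromosome 7, at 118131308 to 118243670, minus strand, and at 24399619 to 24422778, plus strand. Smg6 (ENSMUSG00000038290) and Smg8 (ENSMUSG00000020495) share chromosome 11, at 74925823 to 75164448, plus strand, and at 87077732 to 87086774, minus strand. Smg5 (ENSMUSG00000001415) is on chromosome 3 at 88336260 to 88362338, plus strand. Smg6 shares 243 exon bases with Srr and Gm12333 on the opposite strand, and the other 7 genes besides Upf1 and Smg6 share none. Since the use of strand in counting is not stated, reads of those shared bases cannot be told apart.

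None of the 9 genes passed the test between cKO and WT testis, and their summed level was alike, at 112 ± 11.6 FPKM in WT and 111 ± 4.84 FPKM in cKO (SD, n = 3). The sum pools differences of both signs, such as those of Upf1 (means of 28.7 FPKM in WT and 24.7 FPKM in cKO) and Smg1 (9.31 and 13.4 FPKM). By limma, 0 of 9 had an adjusted p under 0.05, against 0.0140% of the 14238 tested genes (2 genes, 1 higher and 1 lower, 0.00702% in each direction), and limma voom on recovered reads also called 0 of 9. Adjusted p over the members ranged from 0.380 for Upf3a to 0.790 for Smg5. At an unadjusted p under 0.05, 1 of 9 was past the threshold (Upf3a, lower in cKO), against 12.3% of tested genes. That background split into 662 higher (4.65%) and 1094 lower genes (7.68%), and into 900 and 741 on the TPM scale. The groups did not overlap for 1 member, Upf2, against 18.6% of tested genes (8.69% higher and 9.92% lower in cKO). The log2 difference was positive for 4 members and negative for 5, where 50.8% of tested genes were positive, with a median of -0.08 against 0.00 over all tested genes (0.0049 before rounding). The median size of the difference, sign ignored, was 0.15 for the members and 0.16 for all tested genes.

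**Figure D1:**
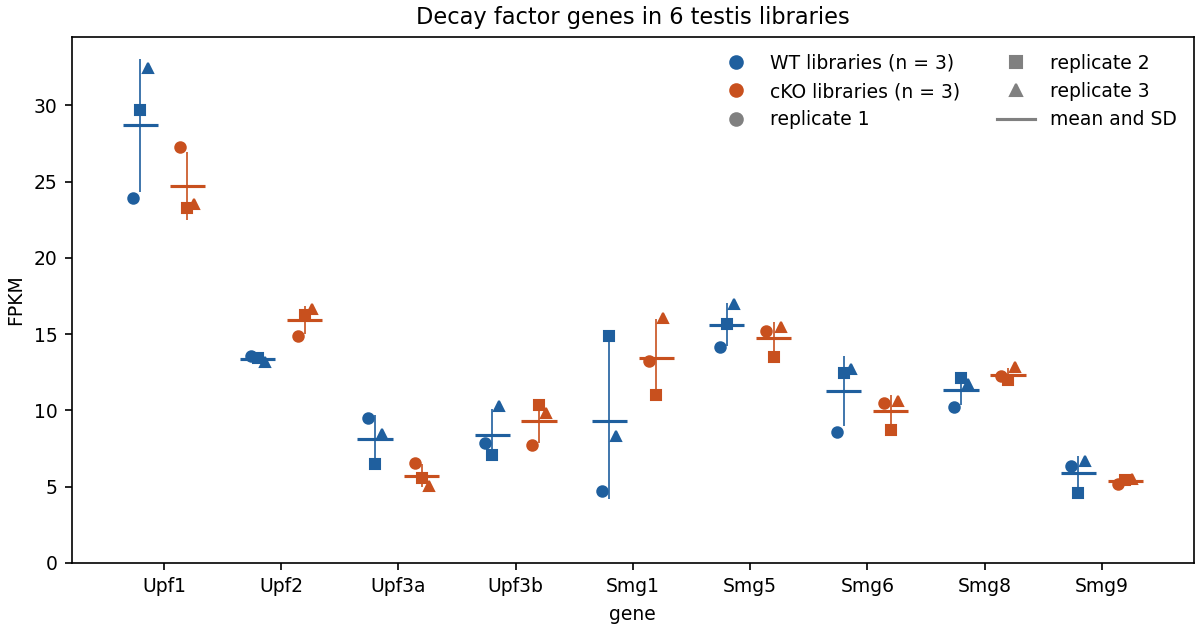
FPKM (vertical axis, from 0) of the 9 decay factor genes in each of the 6 libraries, WT in blue and cKO in orange, with symbols for replicate numbers and a line and bar for mean and SD (n = 3). Upf2 is the gene whose groups do not overlap, at 13.2 to 13.6 FPKM in WT and 14.9 to 16.6 FPKM in cKO, and Smg1 shows a 3.16-fold range among WT libraries.

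Upf1, the helicase at the centre of the pathway, was the most abundant member. Its FPKM was 23.9, 29.7 and 32.5 in WT libraries 1 to 3 and 27.3, 23.3 and 23.6 in cKO libraries 1 to 3. WT library 1 lay among the cKO values, while WT libraries 2 and 3 lay above all of them. The means were 28.7 ± 4.36 FPKM in WT and 24.7 ± 2.25 FPKM in cKO (SD, n = 3). On the log2 scale the difference was -0.20 with an SE of 0.14 (limma adjusted p = 0.566), and its 95% interval ran from -0.53 to 0.13. With 1757 to 2444 reads per library, counting error was 2.15% of the WT mean, and the observed WT spread was 15.2%. The log2 difference of Upf1 was -0.32 without WT library 1 and -0.11 without WT library 3.

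Upf2, the adaptor between UPF1 and the UPF3 proteins, was higher in every cKO library than in every WT library. It was at 13.6, 13.5 and 13.2 FPKM in WT libraries 1 to 3 and at 14.9, 16.3 and 16.6 FPKM in cKO libraries 1 to 3. The cKO mean of 15.9 ± 0.914 FPKM was 119% of the WT mean of 13.4 ± 0.219 FPKM (SD, n = 3). The log2 difference of 0.23 did not pass (SE 0.10, 95% interval -0.0023 to 0.47, limma adjusted p = 0.406, exact two-sided permutation p = 0.1, the smallest that 3 against 3 allows). The WT libraries agreed unusually closely for this gene, with a log2 range smaller than that of all but 1.16% of tested genes. Their spread of 1.63% of the mean was below the counting error of 2.89% expected from 1174 to 1237 reads each.

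Base composition moved with the Upf2 values. GC content of its GENCODE transcripts is 43.6%, and the 2463 tested genes of 42 to 46% GC had a median log2 difference of 0.16. In centred log2(FPKM + 1), the median of those genes was -0.07, -0.09 and -0.06 in WT libraries 1 to 3 and -0.03, 0.12 and 0.13 in cKO libraries 1 to 3. Upf2 itself was at -0.10, -0.11 and -0.14 in WT and at 0.03, 0.15 and 0.18 in cKO libraries, with cKO library 1 nearest to WT in both. With each library's trends on length and GC removed, the log2 difference of Upf2 was 0.07 (95% interval -0.10 to 0.24, limma adjusted p = 0.840), and without cKO library 1 it was 0.28 on the values as deposited. With those trends removed the groups of Upf2 still did not overlap, as for 14.0% of tested genes.

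Upf3a and Upf3b encode paralogs that take the same place between UPF2 and the exon junction complex, UPF3B as the stronger activator of decay in most cells. Upf3a was at 9.53, 6.46 and 8.46 FPKM in WT libraries 1 to 3 and at 6.53, 5.57 and 5.04 FPKM in cKO libraries 1 to 3. The groups overlapped only through cKO library 1, which lay just above WT library 2. Upf3b was at 7.89, 7.05 and 10.3 FPKM in WT and at 7.70, 10.3 and 9.82 FPKM in cKO libraries, so that the groups overlapped over most of their range.

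For Upf3a the means were 8.15 ± 1.56 and 5.71 ± 0.758 FPKM (SD, n = 3), the cKO mean being 70.1% of the WT mean. The log2 difference was -0.44 (SE 0.16, 95% interval -0.80 to -0.08, unadjusted p = 0.0238, limma adjusted p = 0.380). Its GC content of 50.5% is in the middle of the range, where the median difference over 3000 genes of 50 to 54% GC was -0.05. With length and GC trends removed it stayed at -0.46, and over the 19 other settings and left-out libraries it ranged from -0.58 to -0.33 without passing. Upf3b stood at a log2 difference of 0.13 (SE 0.16, limma adjusted p = 0.743), and at -0.04 with those trends removed. With 1 library left out it ranged from 0.028 (without WT library 2) to 0.27 (without WT library 3).

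The ratio of Upf3a to Upf3b within a library does not depend on that library's total. It was 1.21, 0.917 and 0.822 in WT libraries 1 to 3 and 0.848, 0.539 and 0.513 in cKO libraries 1 to 3. WT library 3 lay just below cKO library 1, so the groups overlapped by these 2 libraries. The mean was 0.982 ± 0.201 in WT against 0.633 ± 0.186 in cKO (SD, n = 3), a log2 difference of -0.65 (exact two-sided permutation p = 0.2, where 0.1 is the smallest possible). Without cKO library 1 the difference was -0.88 and without WT library 1 it was -0.49. The ratio can carry a library's length and GC trends, as GC content is 50.5% in Upf3a and 42.4% in Upf3b. With those trends removed, the log2 difference was -0.46 for Upf3a and -0.04 for Upf3b. The ratio itself was not tested on values with the trends removed. Summed FPKM of the paralogs was 16.6 ± 2.73 in WT and 15.0 ± 0.842 in cKO (exact two-sided permutation p = 0.4, n = 3 per group).

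**Figure D2:**
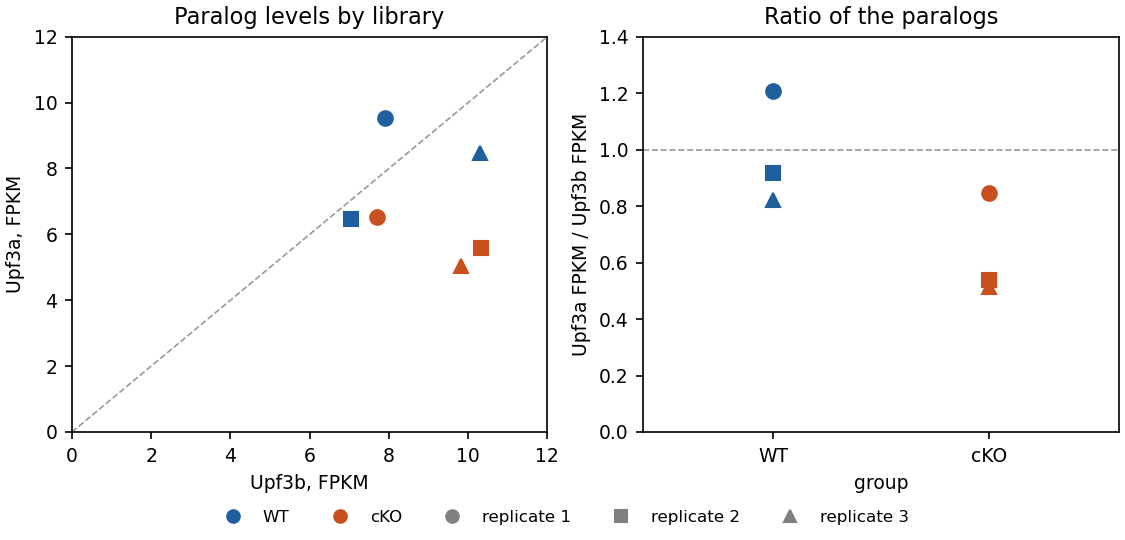
Left, FPKM of Upf3a against Upf3b in each library, with a dashed line of equal levels. Right, their ratio by group, with a dashed line at 1. WT replicate 1 is the library above the line, at 1.21, and cKO replicates 2 and 3 lie lowest, at 0.539 and 0.513.

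How far the paralogs' levels can be compared depends on the gene length used. FPKM in the table is per base of all annotated exons, and for Upf3a that is 5865 bases, including 2 transcripts with a retained intron, against 2057 bases of the principal coding transcript. For Upf3b the lengths are 3999 and 2344 bases. In reads per kilobase of principal transcript, scaled to the library total, Upf3a was at 23.2 in WT and 16.6 in cKO, and Upf3b at 14.4 and 16.1. On that scale Upf3a was above Upf3b in all 3 WT libraries and in cKO library 1, and below it in cKO libraries 2 and 3. Which exons the reads fell in was not measured.

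Smg1, the kinase of UPF1 and the longest member, had the widest spread. It was at 4.71, 14.9 and 8.35 FPKM in WT libraries 1 to 3 and at 13.2, 11.0 and 16.1 FPKM in cKO libraries 1 to 3. WT libraries 1 and 3 lay below all cKO libraries, and WT library 2 was higher than 2 of them. The means were 9.31 ± 5.15 and 13.4 ± 2.55 FPKM (SD, n = 3). The difference was 0.59 on the log2 scale with an SE of 0.33 (limma adjusted p = 0.486), and its 95% interval ran from -0.18 to 1.36. At 1795 to 6288 reads per library, counting error was 1.65% of the WT mean and the observed WT spread 55.3%. Its WT range was wider than that of 97.9% of tested genes.

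Long genes as a class were also low in WT library 1. Smg1 has 23984 exon bases in the table (15557 in its principal transcript), and the 250 tested genes of at least 16000 bases had a median centred log2 value of -0.35 in WT library 1. Their medians were 0.16 and -0.03 in WT libraries 2 and 3 and 0.04, -0.02 and 0.19 in cKO libraries 1 to 3. Smg1 stood at -1.03, 0.45 and -0.31 in WT and at 0.29, 0.04 and 0.55 in cKO libraries. WT library 1 was the lowest in both, with a deviation of Smg1 beyond that of its length class. The log2 difference of Smg1 was 0.23 without WT library 1, 0.97 without WT library 2 and 0.42 with length and GC trends removed.

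**Figure D3:**
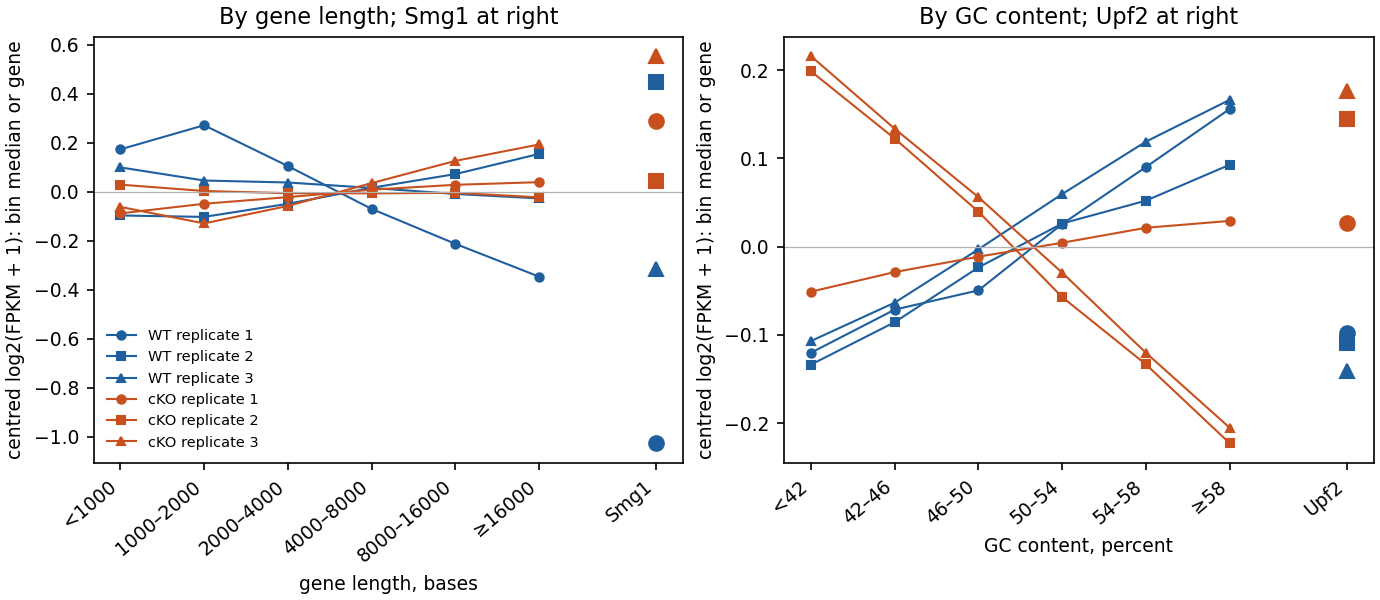
Centred log2(FPKM + 1), that is, each gene's value minus its mean over the 6 libraries, as the median of tested genes in bins of gene length (left) and GC content (right), 1 line per library. Single genes stand at the right end of each panel, Smg1 on the left and Upf2 on the right. WT replicate 1 reaches -0.35 in the longest genes. Across GC content cKO replicates 2 and 3 slope down, while the WT libraries slope up and cKO replicate 1 slopes up less.

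Smg8 and Smg9 encode the pair that binds SMG1 and restrains its kinase activity. Smg8 was at 10.2, 12.1 and 11.7 FPKM in WT libraries 1 to 3 and at 12.2, 11.99 and 12.8 FPKM in cKO libraries 1 to 3. Smg9, the least abundant member, was at 6.35, 4.59 and 6.71 FPKM in WT and at 5.17, 5.46 and 5.50 FPKM in cKO libraries. Both pairs of groups overlapped, and for both genes the cKO libraries agreed more closely than the WT libraries. The log2 difference was 0.11 for Smg8 (95% interval -0.14 to 0.37, limma adjusted p = 0.668) and -0.10 for Smg9 (95% interval -0.43 to 0.24, limma adjusted p = 0.782). With 1 library left out Smg8 ranged from 0.046 (without WT library 1) to 0.16 (without WT library 2) and Smg9 from -0.24 (without WT library 2) to -0.0079 (without WT library 3). For Smg9, with 59.9% GC the most GC-rich member, it was 0.14 with length and GC trends removed.

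Smg5 and Smg6 encode the effectors that act once UPF1 is phosphorylated, SMG6 by cutting the RNA near the stop and SMG5 as an adaptor to other decay enzymes. Smg5 was at 14.2, 15.7 and 17.0 FPKM in WT libraries 1 to 3 and at 15.2, 13.5 and 15.5 FPKM in cKO libraries 1 to 3. Smg6 was at 8.61, 12.4 and 12.7 FPKM in WT and at 10.5, 8.69 and 10.6 FPKM in cKO libraries. For both, WT library 1 lay within or below the cKO values while WT libraries 2 and 3 lay above them. The log2 difference was -0.08 for Smg5 (95% interval -0.34 to 0.19, limma adjusted p = 0.790) and -0.15 for Smg6 (95% interval -0.53 to 0.23, limma adjusted p = 0.709). For Smg5 it was -0.14 without WT library 1 and -0.017 without WT library 3, and for Smg6 it was -0.32 and -0.060.

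**Figure D4:**
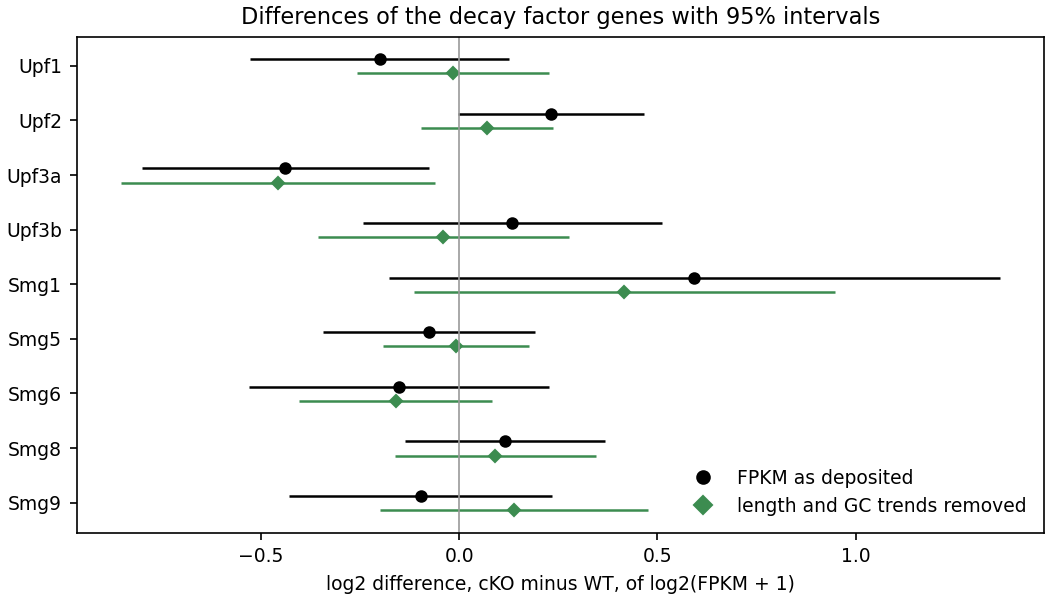
Log2 difference, cKO minus WT, of each member with its 95% interval (limma, 3 libraries per group), on FPKM as deposited (black circles) and with each library's trends on gene length and GC content removed (green diamonds). Upf3a stays near -0.44 and -0.46, Upf2 moves from 0.23 to 0.07 and Upf1 from -0.20 to -0.01.

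In 75.1% of the 13945 tested genes with a known GC content, the sign of the difference was that of genes with like GC content. It was so in 9 of 9 members, a count not tested against that share. Medians over all tested genes ran from 0.25 below 42% GC to -0.26 at 58% GC or more. The members of 42 to 46% GC (Upf2, Upf3b and Smg1) had positive differences, and Upf1 (57.9%) and Smg9 (59.9%) negative ones. Medians were small for the bins of Smg8 (46 to 50% GC, 0.06) and of Upf3a, Smg5 and Smg6 (50 to 54% GC, -0.05). With length and GC trends removed, Upf3a was at -0.46, Smg6 at -0.16, Smg5 at -0.01 and Smg8 at 0.09. Reads of 18S ribosomal RNA made up 1.58 to 2.09% of WT and 0.727 to 0.835% of cKO libraries, and mitochondrial reads 1.66 to 1.98% and 2.39 to 2.97%, neither with overlap. The part of ribosomal and mitochondrial RNA content in the members' differences was not tested, and that of base composition only by removing its trend, with the values given above. Genotype and these library properties cannot be told apart in this design.

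By level over the 6 libraries the members were ordered Upf1 (26.7 FPKM), Smg5 (15.2), Upf2 (14.7), Smg8 (11.8), Smg1 (11.4), Smg6 (10.6), Upf3b (8.85), Upf3a (6.93) and Smg9 (5.63). Upf1 exceeded Smg5 in 6 of 6 libraries without overlap, and Upf2 likewise exceeded Smg8. The other 6 pairs of neighbours had overlapping ranges, so their order is not beyond the spread between libraries. Within WT, Smg5 was also above Upf2 without overlap, while within cKO Upf2 had the higher mean and their ranges overlapped. Smg9 lay at the 42.05th percentile of mean FPKM among tested genes and Upf1 at the 85.6th. Per kilobase of principal transcript the order became Upf1 (26.9), Smg5 (23.9), Upf3a (19.9), Smg1 (17.7), Upf2 (15.7), Smg6 (15.5), Upf3b (15.2), Smg8 (11.96) and Smg9 (9.36), so Upf3a moved from eighth to the third place.

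The members did not vary as 1 block across the libraries. Over the 6 libraries the closest pairs by Pearson's r of centred log2 values were Smg1 with Smg8 (r = 0.96) and Smg5 with Smg6 (r = 0.94), followed by Upf1 with Smg6 (r = 0.87). Upf3a ran opposite to Smg1 (r = -0.87), Smg8 (r = -0.86) and Upf2 (r = -0.84). These values describe 6 points that share library depth, the length trend of WT library 1 and the GC trend, and are given without a test. The members' mean profile stood at -0.01 ± 0.13 in WT libraries and 0.01 ± 0.05 in cKO libraries (SD, n = 3). The mean does not scale members by spread, so Smg1, from -1.03 (WT library 1) to 0.55 (cKO library 3), weighs most in that profile. The genes most like that profile were Aoc3, Acox3, Tmed2b, Spred3 and Pygo1, with r from 0.987 for Pygo1 to 0.994 for Aoc3, and 380 of 14229 other genes had r above 0.9.

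Other genes of the pathway and of RNA decay were read from 9 further lists, which hold 135 genes, 133 of them tested. By limma 0 of 133 had an adjusted p under 0.05 (lowest 0.306), and 15 had an unadjusted p under 0.05, 6 higher and 9 lower. That is 11.3%, against 12.3% of all tested genes, and the groups did not overlap for 17.3%, against 18.6%. The median log2 difference of the 133 genes was 0.03. Named below are the 2 genes of lowest unadjusted p per list, a choice that favours groups without overlap. Groups did not overlap for 4 of 17 other decay and termination factors, 1 of 10 exon junction genes and 3 of 17 decapping genes. They did not overlap for 4 of 18 deadenylation, 3 of 16 exosome and Ski complex and 3 of 12 kinase genes. Among substrates the count was 2 of 14 stress-related transcripts, 0 of 8 non-coding hosts and 4 of 23 splicing factor genes.

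Among 17 other decay and termination factors 0 passed, 9 differences were positive and the median was 0.02. Pnrc2, which ties UPF1 to decapping, was at 49.7 ± 4.17 FPKM in WT and 61.1 ± 7.81 FPKM in cKO, and Ruvbl2, an ATPase of kinase assembly, at 24.3 ± 1.004 and 20.2 ± 1.16 FPKM (SD, n = 3). Groups of both genes did not overlap. Of 10 exon junction complex genes 0 passed and 9 had a negative difference, with a median of -0.15. Acin1, of the accessory ASAP complex, was at 23.5 ± 1.88 and 18.4 ± 2.68 FPKM, and Pym1, which takes the complex apart during translation, at 23.9 ± 6.34 and 16.2 ± 2.40 FPKM (SD, n = 3).

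The enzymes that finish the decay shorten the poly(A) tail, remove the cap and degrade the RNA from both ends. Of 18 deadenylation genes 0 passed, 14 had a positive difference and the median was 0.14. The catalytic subunits Cnot7 and Cnot6 were at 15.6 ± 1.14 and 34.1 ± 4.01 FPKM in WT and at 19.8 ± 2.23 and 44.3 ± 6.19 FPKM in cKO (SD, n = 3), without overlap. Of 17 decapping genes 0 passed and the median was 0.01, with Lsm7, of the ring that binds deadenylated ends, at 28.6 ± 10.5 and 15.4 ± 2.59 FPKM and Patl1, a decapping scaffold, at 12.8 ± 3.04 and 17.0 ± 2.23 FPKM. Of 16 exosome and Ski complex genes 0 passed and the median was -0.06. The exosome ring subunits Exosc4 and Exosc5 were at 16.4 ± 2.26 and 5.999 ± 0.542 FPKM in WT and at 12.2 ± 1.44 and 4.67 ± 0.268 FPKM in cKO (SD, n = 3), likewise without overlap. These values share the GC and length trends described for the members, whose part in them was not tested.

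SMG1 belongs to the PI3K-like kinases, which need shared assembly factors. Of 12 genes for its relatives and their assembly 0 passed, 8 differences were positive and the median was 0.16. Telo2, of the complex that stabilises these kinases, was at 5.89 ± 0.568 FPKM in WT and 4.68 ± 0.509 FPKM in cKO (SD, n = 3), without overlap of the groups. Ruvbl2, listed here as well, is given above.

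Genes with transcripts known as substrates of the pathway did not pass either. Each gene's value pools all its transcripts, so decay of the sensitive ones was not measured. Of 14 tested stress-related substrates 0 passed, 6 had a positive difference and the median was -0.08. Cdkn1a, which is also a p53 target, stood at a log2 difference of 0.48 and Tbl2 at -0.23, neither group pair overlapping. Of 8 tested non-coding hosts 0 passed, 2 differences were positive and the median was -0.08. Zfas1 was at 23.6, 12.6 and 22.3 FPKM in WT libraries 1 to 3 and at 13.7, 13.5 and 13.6 FPKM in cKO libraries 1 to 3, so that WT library 2 lay below all cKO libraries. Snhg8 was likewise high in WT libraries 1 and 3 (both 14.7 FPKM) and at 8.52 FPKM in WT library 2, against 8.98 to 10.2 FPKM in cKO. Of 23 splicing factor genes with exons that carry a premature stop 0 passed, 15 had a positive difference and the median was 0.05. Ptbp2 stood at a log2 difference of 0.69 and Snrnp70 at -0.58, with adjusted p by limma of 0.306 and 0.360.

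**Figure D5:**
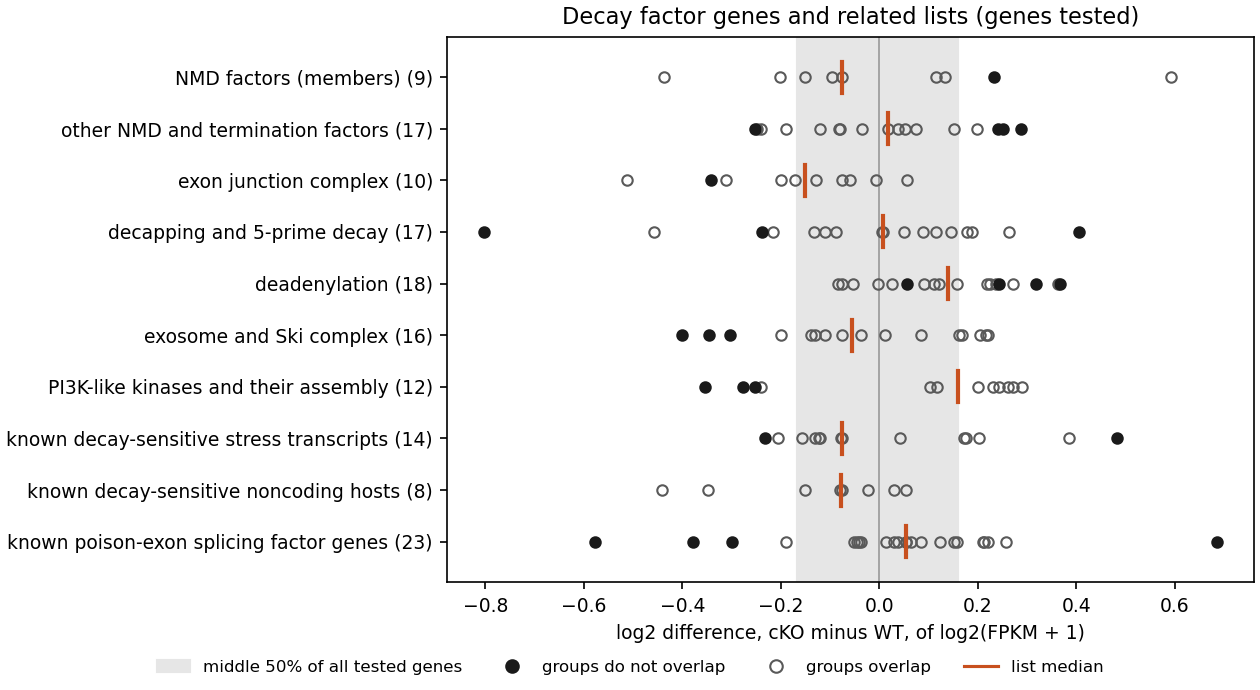
Log2 difference, cKO minus WT, of each tested gene of the decay factors and the 9 further lists, with list medians in orange and the middle 50% of all tested genes shaded (-0.17 to 0.16). Filled points are genes whose WT and cKO values do not overlap. List medians lie within the shaded range, apart from that of the PI3K-like kinase list, which lies on its upper edge (0.1597 against 0.1592).

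Markers of the cell types in the tissue were read beside these genes. Of 14 Sertoli markers 14 had a negative difference (median -0.39) and of 12 tested germ cell markers 12 had a positive one (median 0.39), with 0 of either list past the adjusted threshold by limma. Unadjusted, 9 Sertoli markers (all lower in cKO) and 3 germ cell markers (all higher) had p under 0.05, against 7.68% of tested genes lower and 4.65% higher. Median differences were 0.19 for 6 Leydig cell markers, 0.02 for 6 macrophage markers, -0.11 for 6 endothelial markers, 0.01 for 4 tested myoid markers, 0.02 for 2 tested spermatid markers and 0.64 for 6 red blood cell genes, and 0 genes of any of these lists passed. Unadjusted limma p was under 0.05 for 2 macrophage markers (C1qa and C1qb), 2 endothelial markers (Tie1 and Egfl7) and 1 myoid marker (Des), all lower in cKO. It was also under 0.05 for 1 Leydig cell marker (Lhcgr) and 1 red blood cell gene (Hbb-bs), both higher, and for 0 spermatid markers. No marker was at 0 in all libraries, and the spermatid marker Acrv1 was listed at 0 in all WT libraries. The part of cell makeup in the members' values was not tested.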

How the data were processed

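Gene-level FPKM of the 6 testis libraries, with gene lengths, came as 1 table deposited by the authors. Per the labels' protocols, Trizol was used for RNA and a SMARTER mRNA-Seq kit for libraries. GRCm38 and mm10 are the builds in the submitters' processing notes. Not given in the sources used here are the aligner, the counter, the annotation release and whether strand was used. Of 52133 gene identifiers shared with GENCODE M21 (GRCm38), 1551 had the table's start, so printed positions are those of GENCODE. Multiplied by gene length, 100% of FPKM values were whole numbers of 1 library-wide step (tolerance 0.01), which gave recovered reads. Counting errors cover counting only.

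Log2(FPKM + 1) of the 14238 genes averaging 1 FPKM or more was fitted in limma 3.58.1 (R 4.3.3, eBayes with trend), cKO minus WT, with Benjamini-Hochberg adjustment over all of them and a threshold of 0.05. Differences on this scale understate low genes. Single values used exact permutation tests. Trends on length and GC were removed with natural splines (5 degrees of freedom, GC known for 97.9% of genes). The fitting code was run on simulated counts with changes larger than those of the members and without length or GC trends. That run does not show how small a difference these libraries could reveal. The 9 members, the 9 related lists and the marker lists were chosen with earlier results of these data known. Named were the members, Srsf2, the 2 genes of lowest p per related list and the 5 genes most like the members' mean profile. Other settings were other pseudocounts, filters, scalings and fits, limma voom on recovered reads, a replicate block and leaving out each library. Quasi-likelihood count tests, though planned, were not run, so limma voom was the only fit on recovered reads. Splicing is not analysed here. Python 3.11.15 with pandas 2.3.3, numpy 2.4.6, scipy 1.17.1 and matplotlib 3.10.9 made tables and plots. The result of 1 gene is not reported here.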

Additional observations from a re-analysis of the deposited data

How the results depend on the processing

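Under all 19 alternatives 0 of the 9 decay factors and 0 of the related genes passed by limma, and the members' median log2 difference stayed between -0.11 and -0.01. Of the 9 members 7 kept their sign in every alternative. With length and GC trends removed Upf3b turned to -0.040 and Smg9 to 0.14, neither near the threshold. The count of genes past it, 2 of all tested, was 1 with pseudocounts of 0.1 and 0.5, a mean FPKM of at least 5, the TPM scale, median-of-ratios scaling and limma voom, 3 with length and GC trends removed, 0 without a filter (2416 at an unadjusted p under 0.05) and 0 with any 1 library left out (745 to 2401 unadjusted). With the replicate number as a block it was 0 (1670 unadjusted). Of the 3 pairs of libraries with the same number not all deviated together (r of deviations 0.09, -0.33 and 0.39), and the block changed no call of a member. Members whose groups did not overlap were 2 on the TPM scale (Upf2 and Upf3a, 18.7% of all genes) and 2 with quantile normalization (Upf2 and Smg8, 19.2%). Leaving out 1 library gave 1 to 5, namely 4 without WT library 1 (34.3% of all genes), 5 without WT library 2 (33.9%), 3 without cKO library 1 (37.6%) and 2 without cKO library 2 (23.6%). The cause was not tested, beyond the fewer samples. Upf2 was among them each time. The planned quasi-likelihood count tests were not run.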
